A study of Homo sapiens with 8 samples.

Results

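The proteasome is the barrel-shaped protease that degrades most proteins a cell has tagged with ubiquitin, and its subunits are encoded by genes named PSMA, PSMB, PSMC, PSMD and PSME plus a number. Every gene with such a symbol was taken as a member, and pseudogenes and genes with anything after the number were left out. This gave 43 protein-coding genes in RefSeq, of which 37 were measured among 19752 genes in all. PSMA6 and PSME2 were read only by probe sets shared with another gene, and PSMB11, PSMC5, PSMD7 and PSMD13 were not analysed here. The arrays came from DLD-1, an established colorectal cancer cell line. Cells of the miR-143 group (4 arrays) were transfected with 50 nM of a miR-143 duplex, cells of the mock group (4 arrays) were mock transfected, and total RNA was taken after 24 h and hybridised to Affymetrix HG-U133 Plus 2.0 arrays. All arrays thus share a single cell line and a transfection, and no array of an unrelated duplex was analysed here. The methods describe 4 biological replicates a group and do not say what ties equal replicate numbers together. The question here was whether subunits of the core, base, lid, activators and immunoproteasome differed between miR-143 and mock.

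In the assembled proteasome a core of alpha and beta rings holds the protease sites inside, and a regulatory particle made of a base and a lid binds ubiquitinated proteins, removes the ubiquitin, unfolds the substrate and feeds it in. Interferon induces immunoproteasome subunits that replace the catalytic subunits of the core and alter the peptides made for antigen presentation. When proteasome activity is short, the transcription factor NRF1 (gene NFE2L1) is processed with the help of NGLY1 and DDI2 and raises transcription of the subunit genes together through antioxidant response elements. Proteasome transcripts are abundant in dividing cells, tumour lines included.

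The mature strands of miR-143, which the transfected duplex mimics, are shown because the seed of a strand defines which transcripts it can pair with. The methods do not give the sequence of the duplex itself. RefSeq gives the mature strands below, from chr5:149428978-149428998 and chr5:149428944-149428965 on the plus strand of GRCh38.p14, with the seed, bases 2 to 8, in capitals.
hsa-miR-143-3p: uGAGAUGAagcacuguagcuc
hsa-miR-143-5p: gGUGCAGUgcugcaucucuggu
Target sites in the members' transcripts were not searched, because no transcript sequence was used.

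RefSeq promoters, running from 250 bases before to 50 bases after the gene start, were given for 38 of the 43 genes and are described because subunit genes are known to be controlled together. The core of the antioxidant response element, TGACNNNGC on either strand, lay in 11 of the 38 (28.95%) and in 4687 of 35116 promoters of all genes (13.35%). An ETS family core, CCGGAAG on either strand, lay in 12 of the 38 (31.58%) and in 10.26% of all promoters. The promoters of all genes were not matched to the members, and the difference in shares was not tested. The letters of the first motif are shown in capitals in the members PSMD5, PSME1, PSMB3 and PSMD12, and those of the second in PSMD14, each 5′ to 3′ on the strand of its gene. They lie at chr9:120843040-120843064 (minus), chr14:24136100-24136124 (plus), chr17:38752629-38752653 (plus), chr17:67366726-67366750 (minus) and chr2:161308413-161308437 (plus) of GRCh38.p14.
PSMD5: gctacagtTGACACGGCcctaacgg
PSME1: ggcagggcTGACCCCGCctcctcca
PSMB3: ctccgtttTGACTTTGCaaccaaac
PSMD12: acaaaaccTGACGCTGCaggctgga
PSMD14: tagtgaacCCGGAAGtgcttcgcgg
In the promoters of PSMD9, PSMD12 and PSME4 both motifs were present and shared no base. A match describes letters only, and whether a factor binds there was not measured.

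Before the comparison, the arrays themselves differed. The arrays numbered 4 in both groups stood apart from the rest, with scores of 25.657 (miR-143) and 26.684 (mock) on a first principal component that held 66.95% of the variance, against -18.817 to -4.251 on the other 6 arrays. Array medians were close, between 7.154 and 7.235, but the standard deviation over probe sets was 1.491 and 1.513 on the arrays numbered 4 and 1.336 to 1.405 on the others. Of the epithelial markers, EPCAM read 13.40 to 13.99 and KRT18 14.35 to 15.20 on the log2 scale, whereas PTPRC, a leukocyte marker, read 6.63 to 6.93, close to the array medians. Other epithelial markers were dimmer, with VIL1 at 7.47 to 7.69 and CDX2 at 8.04 to 8.66. COL1A1, a fibroblast marker, read 7.92 to 8.29, so the lists overlapped in level. All 7 epithelial markers had log2 fold changes below 0, with a median of -0.1, and none passed the test. Without mock replicate 4 this median was -0.007 with 4 of 7 below 0. With both arrays numbered 4 left out it was -0.101 with 6 of 7 below 0. For VIL1, a brush-border protein gene, every miR-143 array lay below every mock array (log2 fold change -0.1, exact permutation p = 0.02857, the smallest this design allows), but the mean of its 4 probe sets gave -0.004.

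No proteasome gene differed between miR-143 and mock by limma without pairs, with Benjamini-Hochberg adjustment over all genes, whereas the fit with the replicate number as a block called 1, PSMD5, lower (limma adjusted p = 0.03737). Of the 37 members 34 had a log2 fold change below 0, against 55.6% of all genes. The members' median was -0.066 and their range -0.267 for PSMD5 to 0.081 for PSMB9, and the median over all genes was -0.009. On these same arrays the study listed the proteasome among pathways enriched in its down-regulated gene sets, by a gene set method not run here. Without pairs, at an adjusted p of 0.05, 0 of 37 members were called and 0% of all genes. At an unadjusted limma p under 0.05, 0 members were called in either direction, against 1.7% of all genes lower and 0.714% higher. No member had all 4 miR-143 arrays below every mock array (1.24% of all genes did), and none had all 4 above (0.719%). All 37 confidence intervals at 95% from the fit without pairs contained 0 and together ran from -0.623 to 0.606. Differences inside these intervals are compatible with the fit without pairs. In RNA from whole cultures, fewer cells with a transcript and less of it per cell cannot be told apart.

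The sign of the shift turned when mock replicate 4 alone was left out and after cyclic loess, but not when both arrays numbered 4 were. Leaving out mock replicate 4 alone keeps miR-143 replicate 4, the other array that stood apart. Without mock replicate 4 the members' median was 0.041 and 10 of 37 were below 0, and after cyclic loess normalization of the arrays the median was 0.012 with 15 below 0. With both arrays numbered 4 left out it was -0.072 with 32 below 0. The medians of the subunit groups then ran from -0.095 for the lid to -0.008 for the non-ATPases of the base. The median over all genes was -0.003, 0.008 and -0.014 under these settings.

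The proteasome genes belonged to the brightest genes on the arrays, and their median shift was close to that of genes of their level. 36 of 37 members lay above the median gene level of 7.557, the exception being PSMA8, a testis form of the alpha ring subunit PSMA7. When all genes were ranked by mean level and divided into 10 equal bins, the highest bin held 1976 genes, 30 of them members, and the median log2 fold change over all its genes was -0.0715 and 83.6% were below 0. The 30 members there had a median of -0.071, and 28 of them (93.33%) were below 0. The median of this bin was 0.0238 without mock replicate 4 and 0.003 after cyclic loess. The part of level in the members' shift was not tested.

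**Figure D1:**
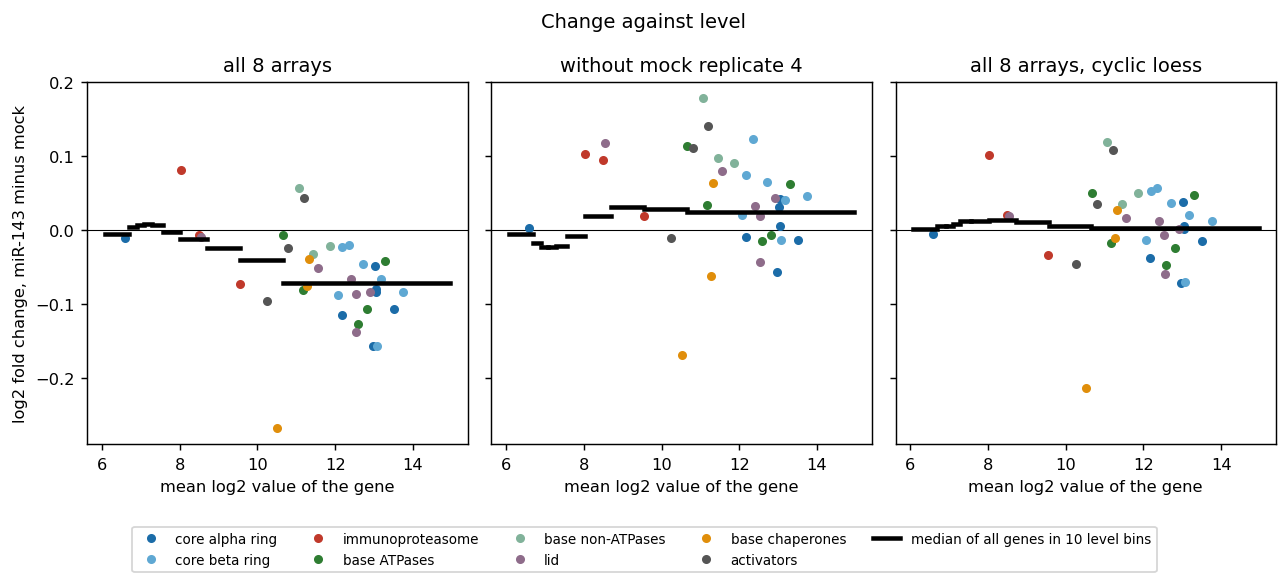
Log2 fold change, miR-143 minus mock, of each measured proteasome gene (points, coloured by subunit group) against its mean log2 value, with the median over all genes in each of 10 level bins as black bars, for all 8 arrays, without mock replicate 4, and after cyclic loess. With all arrays 34 of 37 points lie below 0, without mock replicate 4 only 10 do, and PSMD5 is the lowest point in each panel. Leaving out both arrays numbered 4, a setting not drawn, gave 32 below 0 and a median of -0.072.

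Array by array, the same picture recurred in most subunits. The members' median deviation from their own mean over the 8 arrays was -0.070, -0.072, -0.230 and 0.244 on miR-143 replicates 1 to 4 and -0.040, -0.120, -0.031 and 0.355 on mock replicates 1 to 4. The array numbered 4 was thus high in both groups, highest with mock, and miR-143 replicate 3 was the lowest array. In 34 of 37 members (91.89%) the array numbered 4 was the highest of its group in both groups, which was so in 84.41% of the 1976 genes of the highest bin and in 36.15% of all genes. miR-143 replicate 3 was the lowest of its group for 30 members. Mock replicate 4 was the highest of all 8 arrays in 23 members and miR-143 replicate 4 in 11.

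**Figure D2:**
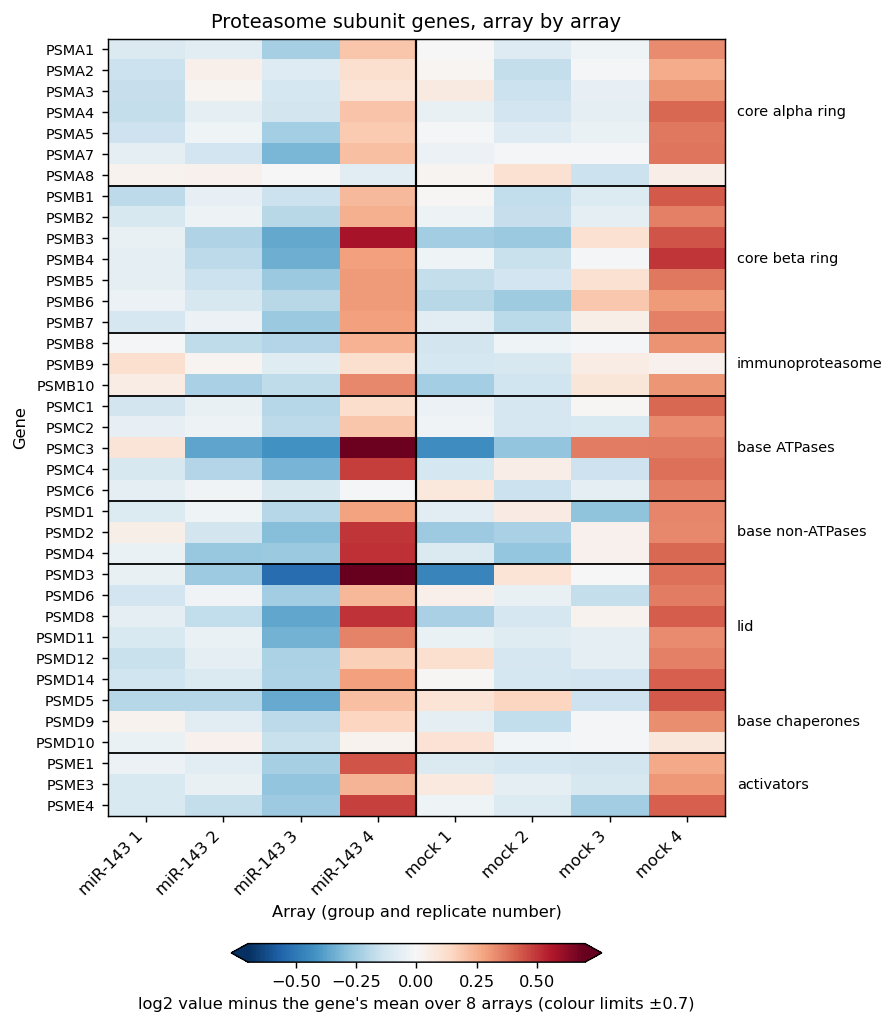
Each row is a measured proteasome gene and each column an array, and colour gives the log2 value minus the mean of that gene over 8 arrays, with colours clipped at ±0.7. The columns numbered 4 are red in both groups for most subunits, and the miR-143 column numbered 3 is blue.

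Equal replicate numbers were taken as pairs, though deviations of arrays with unlike numbers among 1 to 3 also correlated (0.1725 to 0.5383). By these pairs 22 of 37 members were lower with miR-143 in pair 1, 13 in pair 2, 35 in pair 3 and 25 in pair 4. The median differences of the members were -0.04, 0.042, -0.179 and -0.07, so pair 2 ran the other way and pair 3 had the largest difference. Of all genes 51.55%, 52.26%, 59.8% and 51.15% were lower with miR-143 in pairs 1 to 4. Of the members, 3 (PSMA7, PSMB4 and PSMD5) were lower in all 4 pairs, as were 10.93% of all genes. With the number as a block, limma called 1 member lower, PSMD5, and 0 higher, where 0.623% of all genes were called lower and 0.167% higher. At an unadjusted p under 0.05 this fit gave 4 members lower, PSMD5, PSMA7, PSMB4 and PSMD12, against 6.92% of all genes, and 0 higher. Of the 9876 genes above the median level, where 36 members lay, it gave 1228 lower and 347 higher at that p. Of these 9876 genes it called 123 lower and 32 higher after adjustment.

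**Figure D3:**
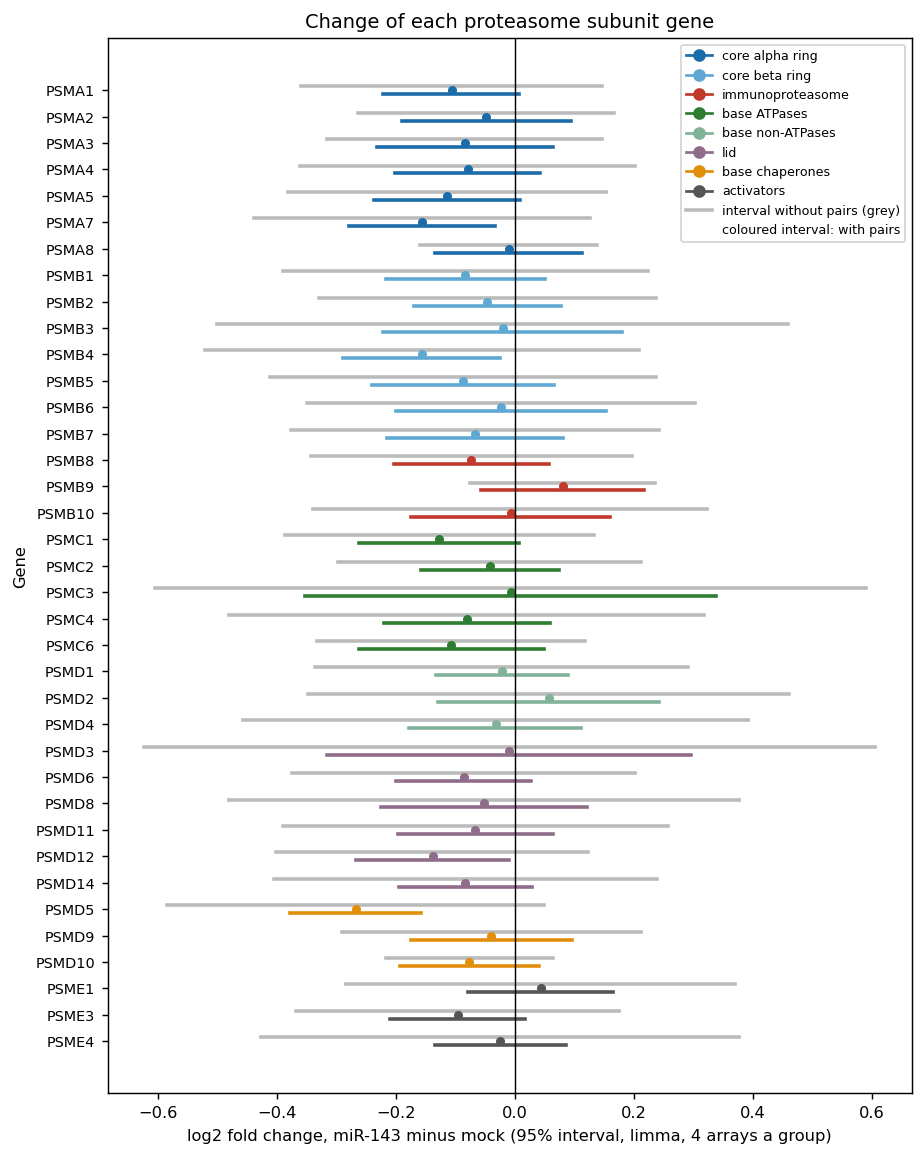
Log2 fold change, miR-143 minus mock, of each measured proteasome gene grouped by place in the particle, with 95% confidence intervals from limma without pairs (grey) and with pairs (coloured). All grey intervals cross 0, and the median SE of 0.137 without pairs was 0.06 with pairs.

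The alpha ring forms the gate through which unfolded proteins enter the core. All 7 measured alpha genes had log2 fold changes below 0, with a median of -0.084, from -0.156 for PSMA7 to -0.01 for PSMA8, and none passed the test. On the log2 scale PSMA7 read 12.91, 12.84, 12.65 and 13.19 on miR-143 replicates 1 to 4 and 12.94, 12.97, 12.96 and 13.35 on mock replicates 1 to 4. The first 3 mock arrays were nearly level, the miR-143 arrays spread around and below them, and the groups overlapped. The log2 fold change was -0.156 (SE 0.126), with an exact permutation p of 0.3143, and -0.057 without mock replicate 4. Leaving out both arrays numbered 4 gave -0.153. PSMA5 (-0.114) and PSMA1 (-0.106) came next, then PSMA3 (-0.084), PSMA4 (-0.079) and PSMA2 (-0.048). PSMA8 read 6.43 to 6.69 on the 8 arrays, below the array medians. Without mock replicate 4 the median of the alpha genes was 0.003, and without both arrays numbered 4 it was -0.041 with 6 of 7 below 0.

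The beta ring carries the protease sites: PSMB5 the chymotrypsin-like, PSMB6 the caspase-like and PSMB7 the trypsin-like activity, while PSMB1 to PSMB4 are structural. All 7 beta genes had log2 fold changes below 0, with a median of -0.066, and none passed the test. PSMB4 read 13.00, 12.88, 12.72 and 13.35 on miR-143 replicates 1 to 4 and 13.04, 12.91, 13.06 and 13.57 on the mock arrays. The number 4 arrays were the highest of each group, miR-143 replicate 3 the lowest, and the groups overlapped. Its log2 fold change was -0.156 (SE 0.163, exact permutation p = 0.4286), and -0.014 without mock replicate 4. Leaving out both arrays numbered 4 gave -0.135. PSMB1 had -0.083, PSMB2 -0.046 and PSMB3 -0.02. Without mock replicate 4 the group's median was 0.046 and after cyclic loess 0.021. Without both arrays numbered 4 it was -0.065 with 7 of 7 below 0.

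The 3 catalytic genes had log2 fold changes below 0, like the other beta genes. PSMB5 read 12.01, 11.92, 11.82 and 12.37 with miR-143 and 11.91, 11.94, 12.18 and 12.44 with mock, a log2 fold change of -0.087. PSMB6 read 12.14, 12.07, 11.99 and 12.48 against 11.99, 11.93, 12.37 and 12.48, a log2 fold change of -0.023. PSMB7 read 13.06, 13.14, 12.91 and 13.46 against 13.10, 12.99, 13.22 and 13.53, a log2 fold change of -0.066. The values of the groups interleaved for each of them, and only pair 3 differed by more than 0.3, with miR-143 lower.

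The immunoproteasome genes PSMB8, PSMB9 and PSMB10 encode the inducible forms that take the places of PSMB5, PSMB6 and PSMB7. PSMB8 and PSMB9 lie in the major histocompatibility complex beside the peptide transporter genes. PSMB9 read 8.15, 8.05, 7.95 and 8.15 on the miR-143 arrays and 7.91, 7.92, 8.09 and 8.06 on the mock arrays. miR-143 replicates 1 and 4 were the highest arrays and replicates 2 and 3 lay among the mock arrays, so the groups overlapped. The log2 fold change, 0.081 (SE 0.069, interval -0.075 to 0.236, exact permutation p = 0.2571), was the highest of all members. It was 0.103 without mock replicate 4 and 0.08 without both arrays numbered 4. PSMB8 read 9.53, 9.36, 9.34 and 9.78 against 9.41, 9.51, 9.53 and 9.85 (log2 fold change -0.073). PSMB10 read 8.54, 8.26, 8.31 and 8.82 against 8.25, 8.35, 8.57 and 8.79 (-0.007). Neither of these separated the groups.

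**Figure D4:**
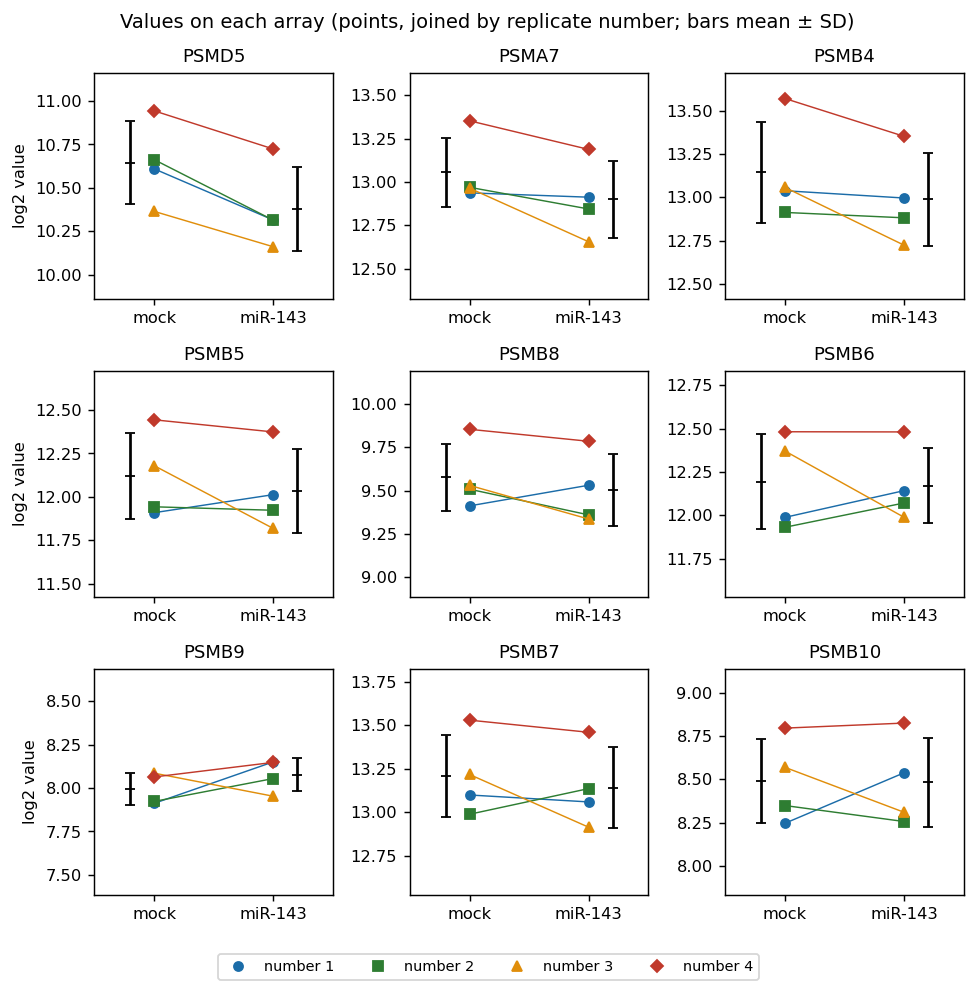
Log2 values on each array for PSMD5, PSMA7, PSMB4 and the 3 constitutive catalytic genes with their immunoproteasome counterparts, with points joined by replicate number and bars at mean ± SD of 4 arrays. For PSMD5 all 4 lines slope down from mock to miR-143, whereas for PSMB9 and PSMB6 they run both ways.

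Each immunoproteasome gene was also set against its constitutive counterpart on the same array, and only the change of that difference between groups is given. An array difference shared equally by all genes cancels in this way, but one that varies with level does not. The arrays numbered 4 differed from the others by a median of 0.037 over all genes and 0.33 in the highest bin. The constitutive genes were the brighter of each pair. For PSMB9 against PSMB6 the log2 difference was higher with miR-143 by 0.103 (SD 0.16 with miR-143 and 0.188 with mock, exact permutation p = 0.4). For PSMB10 against PSMB7 it was higher by 0.059 (SD 0.154 and 0.099, exact permutation p = 0.5143). For PSMB8 against PSMB5 it was higher by 0.014 (SD 0.056 and 0.096, exact permutation p = 0.7714). All 3 had an adjusted p of 0.7714 over these 3 exact permutation tests, and the smallest p the design allows is 0.02857. None of these changes was larger than the spread between arrays. In the same order, they became 0.049, -0.001 and -0.021 after cyclic loess. Without mock replicate 4 they were 0.03, 0.053 and -0.002.

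The base binds to the alpha ring, and its ring of ATPases, PSMC1 to PSMC6, unfolds substrates. All 5 measured ATPase genes had log2 fold changes below 0, with a median of -0.081, and none passed the test. Without mock replicate 4 the median was 0.034 with 2 of 5 below 0, and after cyclic loess it was -0.017. Without both arrays numbered 4 it was -0.078 with 5 of 5 below 0. PSMC1 read 12.46, 12.54, 12.39 and 12.71 on the miR-143 arrays and 12.55, 12.47, 12.60 and 12.99 on the mock arrays. Mock replicate 4 was the highest array and the others overlapped, giving a log2 fold change of -0.127 (SE 0.116, exact permutation p = 0.4286) and of -0.015 without that array. Leaving out both arrays numbered 4 gave -0.078. PSMC6 had -0.107, PSMC4 -0.081 and PSMC2 -0.042.

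PSMC3 varied most among the ATPases. It read 10.76, 10.30, 10.24 and 11.35 with miR-143 and 10.23, 10.39, 11.03 and 11.03 with mock, so each group held both low and high arrays. The log2 fold change was -0.007 with an SE of 0.267, and the pair differences were 0.524, -0.089, -0.783 and 0.319.

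The base also has non-ATPase subunits: the scaffold proteins PSMD1 and PSMD2 and the ubiquitin receptor PSMD4. PSMD2 read 11.11, 10.94, 10.77 and 11.57 on the miR-143 arrays and 10.81, 10.84, 11.10 and 11.40 on the mock arrays. The arrays interleaved, miR-143 replicate 4 being the highest and replicate 3 the lowest, and the log2 fold change was 0.057 (SE 0.181, exact permutation p = 0.7714). PSMD1 had -0.021 and PSMD4 -0.032, but a second bright probe set of PSMD1 gave -0.204 and the mean of both -0.113. The median of these 3 genes was -0.021, turned to 0.097 without mock replicate 4 and was -0.008 without both arrays numbered 4.

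The lid contains PSMD14, the deubiquitinase that strips ubiquitin chains from substrates, and a horseshoe of scaffold subunits around it. All 6 measured lid genes had log2 fold changes below 0 (median -0.074, 0.038 without mock replicate 4 and 0.007 after cyclic loess), and none passed the test. Without both arrays numbered 4 the lid median was -0.095 with 6 of 6 below 0. PSMD12, a scaffold subunit, read 12.39, 12.47, 12.32 and 12.71 with miR-143 and 12.65, 12.42, 12.47 and 12.90 with mock. Mock replicate 4 was above every miR-143 array, the other mock arrays lay among the miR-143 arrays, and the groups overlapped. The log2 fold change was -0.138 (SE 0.117, exact permutation p = 0.3714). PSMD14 itself had -0.083, PSMD6 -0.086, PSMD11 -0.066 and PSMD8 -0.051. PSMD3 had -0.009 with an SE of 0.274, the widest of all members, as it read from 8.02 on miR-143 replicate 3 to 9.37 on miR-143 replicate 4.

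PSMD5, PSMD9 and PSMD10 encode chaperones that help assemble the base and are absent from the finished particle. PSMD5 lies at chr9:120816053-120842922 of GRCh38.p14 and read 10.31, 10.31, 10.16 and 10.72 on miR-143 replicates 1 to 4 and 10.61, 10.66, 10.37 and 10.94 on mock replicates 1 to 4. Within each number the miR-143 array was lower, with differences of -0.296, -0.349, -0.204 and -0.22 on the log2 scale, while across numbers the groups overlapped, since miR-143 replicate 4 lay above 3 mock arrays. Without pairs the log2 fold change was -0.267 (SE 0.142, interval -0.585 to 0.05, limma adjusted p = 0.9999, exact permutation p = 0.2286). With the replicate number as a block the SE was 0.05, the interval -0.377 to -0.157 and the limma adjusted p 0.03737, so PSMD5 fell in that fit.

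The call for PSMD5 rests on treating equal numbers as pairs, which the labels do not state, and did not outlast the loss of any pair. With pair 1, 2, 3 or 4 left out, the blocked limma fit gave adjusted p-values of 0.1763, 0.1403, 0.124 and 0.119, at log2 fold changes of -0.258, -0.24, -0.288 and -0.283. It was also lost with the mean of both probe sets (log2 fold change -0.181, blocked limma adjusted p = 0.1814) and after cyclic loess (-0.213, blocked limma adjusted p = 0.1552). The other probe set of PSMD5 was dim, with a mean of 6.827, and differed by -0.094. The study had listed PSMD5 among putative targets chosen on these same arrays, so its direction here is not independent evidence. PSMD9 and PSMD10 had log2 fold changes of -0.039 and -0.076.

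The activators cap the core in place of the regulatory particle: PSME1 and PSME2 form the interferon-inducible cap, PSME3 the nuclear one, and PSME4 a single large protein. PSME3 read 10.15, 10.20, 9.98 and 10.49 on the miR-143 arrays and 10.32, 10.19, 10.14 and 10.56 on the mock arrays, with overlap and a log2 fold change of -0.096 (SE 0.121, exact permutation p = 0.5143). PSME1 read 11.16, 11.12, 10.97 and 11.65 against 11.11, 11.08, 11.07 and 11.47. The first 2 arrays of each group were nearly equal and the log2 fold change was 0.044 (SE 0.146, exact permutation p = 0.7143). PSME4 had -0.024, and PSME2 could not be read alone. The group's median was -0.024, and 0.111 without mock replicate 4. Without both arrays numbered 4 it was -0.053 with 2 of 3 below 0.

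The choice of probe set left most signs as they were but moved some sizes. The 37 members had 69 probe sets, 17 of them with 1 each. Of the 32 probe sets not used, 27 had a difference below 0. Besides PSMD1 and PSMD5, the second probe set of PSMA7, also bright with a mean of 11.084, gave -0.024 where the one used gave -0.156. For PSMB4, also -0.156 by the probe set used, the others gave -0.06 (mean 12.48) and -0.214 (mean 10.183). Probe sets that may read related transcripts (suffix _x_at) served 3 members, PSMA1, PSMA7 and PSME3, and those that may read several transcripts served 13 (suffix _s_at).

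Genes that act with the proteasome were taken as a list of 34, of which 29 were measured. No gene of it passed the test with or without pairs. In all, 22 had log2 fold changes below 0 and the median was -0.041, against 0.044 without mock replicate 4 and 0.022 after cyclic loess. With both arrays numbered 4 left out the median was -0.041 with 18 below 0. NGLY1, the glycanase that NRF1 needs to become active, read 9.58, 9.61, 9.47 and 9.96 with miR-143 and 9.81, 9.68, 9.75 and 10.19 with mock. It was lower with miR-143 in each pair but overlapped across pairs, with a log2 fold change of -0.202 (SE 0.132, exact permutation p = 0.2857, blocked limma adjusted p = 0.1489). NFE2L1 itself had 0.023 and NFE2L2, which encodes the related factor NRF2, -0.093.

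All 7 genes of core assembly and inhibition had log2 fold changes below 0, from -0.168 for the assembly chaperone PSMG3 to -0.013 for the maturation factor POMP, with a median of -0.081. Of the enzymes and adaptors bound to the proteasome 4 of 7 were below 0. There UCHL5, a deubiquitinase of the base, had -0.158 (blocked limma adjusted p = 0.389) and UBE3C, a ubiquitin ligase, 0.167 (blocked limma adjusted p = 0.422). The mean over the probe sets of each gene was -0.073 for UCHL5 and -0.007 for UBE3C, which turned the sign of the latter. The remaining subunits showed no common direction, since ADRM1, a ubiquitin receptor, had 0.071 and SEM1, a small lid protein, -0.129. Of the shuttles and the segregase, 5 of 7 were below 0, VCP with -0.061, and UBQLN4 had 0.088. The ubiquitin gene UBB had -0.137, and all 3 measured genes of ubiquitin and its activation were below 0. With only mock replicate 4 left out, 3 of 7 core assembly and inhibition genes (median 0) and 1 of 7 bound enzymes and adaptors were below 0. For the shuttles and segregase it was 0 of 7, and for ubiquitin and its activation 2 of 3. With both arrays numbered 4 left out, the counts in the same order were 5 of 7, 3 of 7, 3 of 7 and 2 of 3. The medians were then -0.045, 0.038, 0.019 and -0.126.

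Genes that act in antigen processing, the regulators NLRC5 and IRF1 included, gave no call with or without pairs. Of 8 measured 5 were below 0, with a median of -0.008, and 3 were below 0 without mock replicate 4, with a median of 0.022. Without both arrays numbered 4 the median was 0.012, with 3 below 0. TAP1, a subunit of the peptide transporter, had 0.146 (blocked limma adjusted p = 0.2914) and B2M, the light chain of the presenting complex, -0.115 (limma adjusted p without pairs 0.9999).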

How the data were processed

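Values of 8 arrays (4 miR-143, 4 mock) were used as deposited: log2 expression values. By the processing notes, the authors used RMA from affy, a method that corrects background, normalizes quantiles across arrays and gives a summary for every probe set. RMA compresses differences of dim probe sets, and precision is limited by having 4 arrays a group. Of 54675 probe sets, 62 were controls, 41091 had a single gene symbol in the platform annotation, 1801 several and 11721 none, and the latter 2 classes were not named. Symbols were updated through RefSeq. Each gene was read by the probe set of highest mean over the 8 arrays, which left 19752 genes.

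All genes were fitted together in limma 3.58.1 (R 4.3.3, lmFit and eBayes, two-sided) and p-values were adjusted by Benjamini-Hochberg with a threshold of 0.05. Single genes were also tested by a two-sided exact permutation over 70 regroupings of the arrays (Python 3.11.15), whose smallest p is 0.02857. The limma script was tested on simulated data. The main fit had no block. The replicate numbers are given in the labels without a stated meaning. Deviations of arrays with the same number from their group means correlated at 0.1095, 0.1665, 0.5761 and 0.8076, all over the limit of 0.1, so the numbers were treated as pairs on the evidence of the data alone. The first lies close to the limit, and miR-143 replicates 1 and 2 correlated more with another mock number (0.2503 and 0.5383). Arrays of unlike numbers among 1 to 3 correlated at 0.1725 to 0.5383, also over the limit. The limit therefore cannot tell equal from unlike numbers among these arrays, and the pairing of numbers 1 to 3 remains an assumption.

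Described in full were, per subunit group, the member of lowest p with and without pairs, any called or non-overlapping member, PSMD5, and each immunoproteasome gene with its counterpart, and of other lists the gene of lowest p. PSMC3, PSMD3 and some values outside this rule were added after their values were seen. Members, subunit groups, pathway lists and antigen and cell type marker lists (fibroblast markers had a median log2 fold change of 0 and leukocyte markers of -0.012) were chosen with earlier results of these data known. Alternatives were other probe set rules, scaling, array weights, a level filter, left-out arrays and the block.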

Additional observations from a re-analysis of the deposited data

Results flagged for a closer look

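In 5 members mock replicate 4 stood far above the other mock arrays by Dixon's ratio, the gap to the nearest array over the whole range of the group, being above the 95% critical value. The ratio was 0.849 for PSMA4, 0.833 for PSMA5 and 0.923 for PSMA7, all genes of the alpha ring, 0.903 for the lid gene PSMD11 and 0.922 for the activator gene PSME1. These were 5 of 74 groups of 4 arrays (6.757%), where chance gives about 1 in 20, and over all genes 2828 of 39504 groups (7.159%) passed the same value.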

How the results depend on the processing

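With the replicate block 1 proteasome gene was called, PSMD5, and with no block none. In the other settings run, blocked fits with a pair left out, with the mean of all probe sets or with cyclic loess included, the count was 0. The block changed no other call among the members. Among all genes the called lower and higher were 0 and 0 without pairs, 123 and 33 with the block, 31 and 22 after cyclic loess, 36 and 20 with array weights, and 30 and 13 without both arrays numbered 4. The members' median log2 fold change of -0.066 became 0.012 after cyclic loess, with the replicate block or not (the blocked form was chosen after seeing the data). Leaving out each array in turn gave medians from -0.177 (without miR-143 replicate 4) to 0.041 (without mock replicate 4), and without miR-143 replicate 3 it was -0.012. The other settings kept it between -0.104 and -0.036. Against the deposited values, 19 members had another sign after cyclic loess, 24 without mock replicate 4 and 2 without both arrays numbered 4. The cause was not tested. SEs of 0.062 to 0.274 without pairs limit what 4 arrays a group can show.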
